A study of Mus musculus with 12 samples.

Results

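The genes described here are 10 mouse genes used as markers of lung epithelium, followed in cells washed out of the lung and in a macrophage line. Scgb1a1 and the surfactant genes Sftpc, Sftpa1, Sftpb and Sftpd encode secreted proteins. Epcam, Cdh1, Krt8, Krt18 and Krt19 encode adhesion and cytoskeletal proteins of epithelial cells. They were chosen by name, as every probe set annotated to exactly 1 of these symbols, which gave 14 of 20380 probe sets with 1 symbol and 10 of 12393 genes. Affymetrix arrays gave the transcript levels of 12 samples, 3 in each of 4 groups. These were bronchoalveolar lavage macrophages of pregnant mice (Pregnant), lavage macrophages of control mice (Control), RAW264.7 cells cultured overnight with estradiol at 1 ug/mL (Estradiol), and RAW264.7 cells without it (Unstimulated). Lavage rinses free cells from the airways and alveoli with fluid, and the design text has these cells going to RNA extraction with no culture step. RAW264.7 is a macrophage-like line from a male mouse, grown without epithelial cells, and the design text says that its untreated cultures received vehicle. The treatment label of estradiol overnight is attached to every sample, lavage included, which goes against that design text, so groups were taken from the group label. The labels are silent on strain, age, day of pregnancy, sex of the controls and sorting of the lavage cells. They also do not say that replicates were separate animals or cultures, so every p-value here covers the spread among these arrays alone, which may be technical.

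Lung surfactant is a film of lipid and protein that keeps alveoli open. Alveolar type 2 cells make it: SFTPB and SFTPC are small hydrophobic proteins that spread the lipid, and SFTPA1 and SFTPD are collectins that bind microbes. SCGB1A1 is the main secreted protein of club cells in the airways. EPCAM is a surface adhesion protein of epithelia, CDH1 (E-cadherin) joins cells at adherens junctions, and keratins 8, 18 and 19 build the filaments of simple epithelia, with keratin 8 pairing with keratin 18. Alveolar macrophages live on the surfactant film, take up and break down surfactant, and are also known to carry E-cadherin in mice. In a mixed sample, fewer cells of a type and less RNA per cell cannot be told apart.

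The lavage samples carried the alveolar macrophage genes: 18 of 18 measured markers lay above the array's 40th percentile on at least 3 lavage arrays, and their summed intensity was 183000 to 187580 in Pregnant and 183720 to 192630 in Control lavage. Of all 12393 genes, 7467 also lay above that percentile on at least 3 lavage arrays. On every RAW264.7 array 9 of the 18 markers did so too. That percentile, at intensities of 142 to 163, was used as a line for dim signal since the table holds no detection calls. Array medians ran between 369 and 393, and arrays of 1 group correlated at 0.995 to 0.999 over all genes. No sample stood apart on these measures.

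Promoter sequence is shown for 4 of the members for which an entry was matched. Over the lavage samples, described further on, Sftpa1 correlated at 0.80 with Sftpb and at 0.87 with Krt18. Whether the motifs go with the patterns over these samples was not tested. Each line holds the 250 bases before the gene's start in RefSeq (GRCm38.p6). Entries were matched for 5 of the 10 members, the fifth being Krt8. Capitals mark 3 motifs searched on both strands: CTCAAG and CACTTG, which hold the CAAG core known to be bound by the lung transcription factor NKX2-1 on one strand or the other, and the TATA sequence TATAAA.
Sftpa1 promoter, chr14:41131538-41131787, plus strand: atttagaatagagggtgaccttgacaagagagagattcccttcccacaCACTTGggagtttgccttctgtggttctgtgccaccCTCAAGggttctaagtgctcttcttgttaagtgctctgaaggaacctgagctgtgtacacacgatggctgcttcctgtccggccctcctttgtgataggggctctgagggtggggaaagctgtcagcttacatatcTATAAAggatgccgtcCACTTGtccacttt
Sftpb promoter, chr6:72304360-72304609, plus strand: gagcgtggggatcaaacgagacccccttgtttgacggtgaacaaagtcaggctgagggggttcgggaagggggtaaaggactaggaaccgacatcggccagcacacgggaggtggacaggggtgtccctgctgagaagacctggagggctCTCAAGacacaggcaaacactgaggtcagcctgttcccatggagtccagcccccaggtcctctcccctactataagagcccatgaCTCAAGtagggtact
Krt18 promoter, chr15:102027966-102028215, plus strand: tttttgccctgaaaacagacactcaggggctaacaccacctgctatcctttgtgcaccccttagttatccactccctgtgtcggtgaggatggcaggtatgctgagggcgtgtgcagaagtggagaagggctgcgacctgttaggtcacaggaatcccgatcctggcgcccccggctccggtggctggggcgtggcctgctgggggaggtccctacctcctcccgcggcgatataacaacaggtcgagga
Epcam promoter, chr17:87635729-87635978, plus strand: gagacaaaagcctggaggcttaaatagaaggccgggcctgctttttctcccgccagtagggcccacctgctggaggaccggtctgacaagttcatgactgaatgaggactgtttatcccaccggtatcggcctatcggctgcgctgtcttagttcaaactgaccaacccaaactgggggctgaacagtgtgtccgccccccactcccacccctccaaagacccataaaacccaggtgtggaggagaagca
The Sftpa1 window held CACTTG 2 times and CTCAAG and TATAAA 1 time each. The Sftpb window held CTCAAG 2 times. The windows of Krt18, Krt8 and Epcam held none of these letters. Of 32851 mouse promoters of the same length, 13.3% held CTCAAG, 11.6% held CACTTG, 22.6% held either, and 12.4% held TATAAA. No overlap between the motifs occurred in the windows shown, and a match is a string of letters, not a measured site. On the chromosomes, Krt8 and Krt18 are neighbours, and Sftpa1 and Sftpd are separated by Mbl1 alone among the genes of that table.

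All 10 genes had higher signals in lavage RNA than in RAW264.7 cells, where none stood above the dim line. Every lavage array was above every RAW264.7 array for 10 of 10 members, a separation that 23.3% of all genes showed. None of the 10 reached the dim line on any RAW264.7 array, whereas 7 exceeded it on all 6 lavage arrays, Sftpd and Krt8 on 3 each and Sftpb on 1. In Control lavage against Unstimulated RAW264.7 cells, limma called 10 of 10 members higher at an adjusted p under 0.05, where 27.9% of 12393 genes were called higher and 61.9% were called in either direction. Lavage cells and the line differ in tissue, culture and origin, which cannot be told apart here.

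Among the structural genes, Cdh1 measured 4250, 4769 and 4620 in Control lavage, against 13.1, 12.5 and 10.5 in Unstimulated cells. It was higher by 8.45 ± 0.09 (log2, SE), about 350-fold, with an adjusted p of 1.8e-08. Krt19 measured 12618, 12800 and 12909 in Control lavage and 72.0, 46.8 and 49.5 in Unstimulated cells. These are differences of a bright signal from background, so their size depends on the constant of 1 added before the logarithm: with 16 added, the Cdh1 difference was 7.35. Krt19 was higher by 7.83 ± 0.16 and Epcam by 4.99 ± 0.06. Krt18 was higher by 3.87 ± 0.47 and Krt8 by 2.23 ± 0.37, and their Control arrays had SDs of 0.93 and 0.80 (log2).

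Of the secreted group, Scgb1a1 measured 10965, 6031 and 8712 in Control lavage, against 64.5, 31.5 and 51.0 in Unstimulated cells. The club cell gene was thus higher by 7.44 ± 0.31 (173-fold, adjusted p 2.8e-06). Sftpa1 was higher by 4.44 ± 0.48 and Sftpc by 4.28 ± 0.55 on the probe set used, or by 5.44 on the other Sftpc probe set. Sftpd was higher by 1.77 ± 0.29 and Sftpb by 0.81 ± 0.09. Sftpb stayed under the dim line on all but 1 lavage array, and its 1.75-fold difference is the smallest of the 10.

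**Figure D1:**
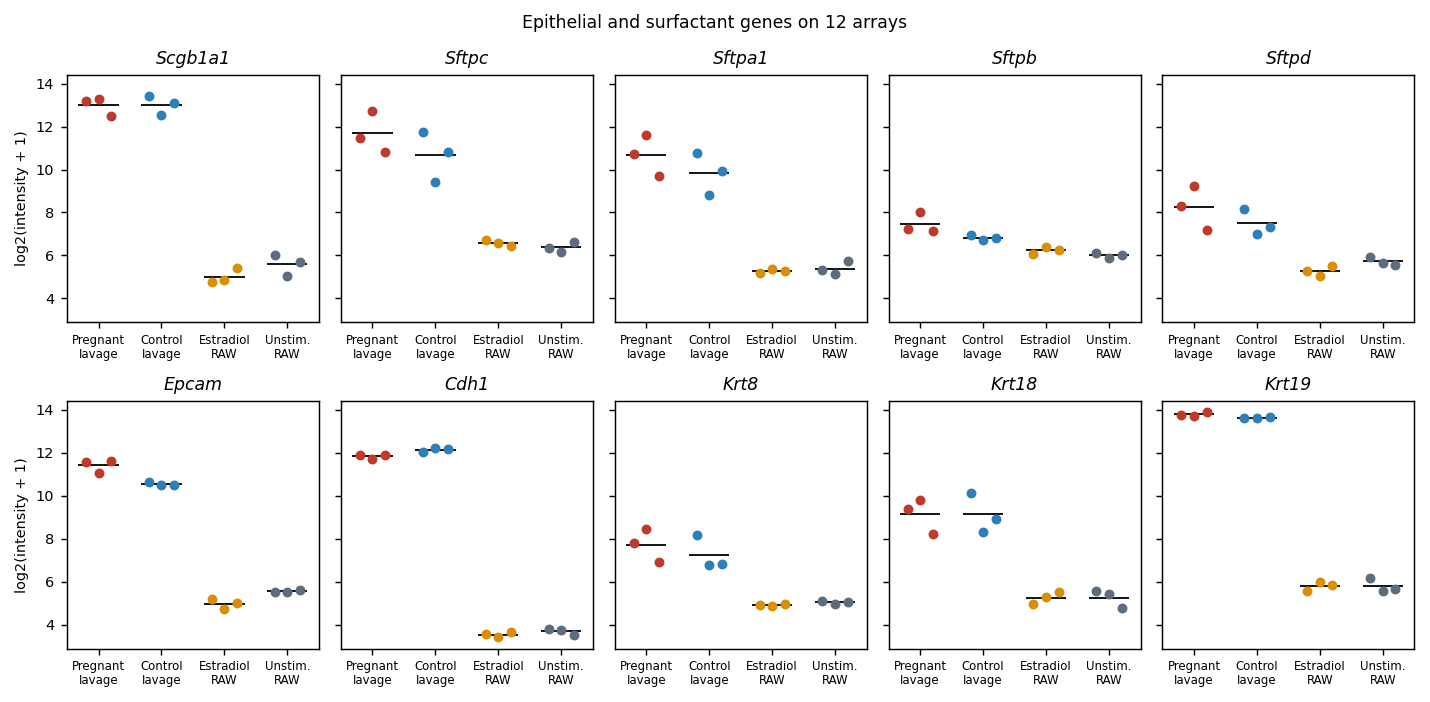
Intensity, as log2(intensity + 1) on the vertical axis, of each of the 10 genes in the Pregnant, Control, Estradiol and Unstimulated groups along the horizontal axis; points are single arrays and lines are group means. All lavage points lie above all RAW264.7 points, and Sftpc and Sftpa1 spread widely within both lavage groups whereas Cdh1 and Krt19 lie close together.

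The 10 genes divided by how steady they were among lavage samples. Sftpc, the type 2 cell marker, measured 2845, 6846 and 1800 in Pregnant and 3382, 682 and 1817 in Control lavage. Its highest array, Pregnant 2, was 10.0-fold above its lowest, Control 2, and the groups overlapped. Sftpa1 measured 1662, 3111 and 817 in Pregnant and 1761, 446 and 961 in Control lavage. The order of the 6 arrays was identical for the 2 genes: Pregnant 2, Control 1, Pregnant 1, Control 3, Pregnant 3 and Control 2. Sftpd, the other collectin, measured 316, 592 and 144 in Pregnant and 284, 126 and 161 in Control lavage. Pregnant 2 was again the highest array and Control 2 the lowest. Sftpb, with 147, 262 and 140 in Pregnant and 122, 103 and 112 in Control lavage, had those same extremes.

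Krt8 and Krt18, whose products pair in filaments, spread almost as widely. Krt8 measured 220, 351 and 120 in Pregnant and 290, 108 and 114 in Control lavage, and Krt18 measured 663, 903 and 302 in Pregnant and 1136, 318 and 485 in Control lavage. In both, Pregnant 2 and Control 1 were the top 2 arrays. Scgb1a1 had a narrower range, with 9309, 9894 and 5729 in Pregnant and 10965, 6031 and 8712 in Control lavage. Its order of arrays, with Control 1 first and Pregnant 3 last, was that of Krt18.

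In Cdh1 and Krt19 the ranges were narrower still, whereas Epcam spanned 2.17-fold, against 1.91-fold for Scgb1a1. Krt19 measured 14106, 13455 and 15250 in Pregnant and 12618, 12800 and 12909 in Control lavage, a range of 1.21-fold over 6 arrays. Cdh1 measured 3874, 3388 and 3788 in Pregnant and 4250, 4769 and 4620 in Control lavage, a range of 1.41-fold. Epcam measured 3088, 2129 and 3146 in Pregnant and 1578, 1450 and 1453 in Control lavage. The Pregnant and Control arrays did not overlap in Epcam, Cdh1 or Krt19.

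Set against all genes, the within-group SD (log2) of Sftpc was 1.08 and stood at the 99.8th percentile of 12393 genes, whose median SD was 0.11. Sftpa1 followed with 0.98 (percentile 99.6), Krt18 with 0.88 (99.4), Sftpd with 0.83 (99.2) and Krt8 with 0.78 (99.1). Scgb1a1 had an SD of 0.43 (96.7), Sftpb of 0.36 (95.1) and Epcam of 0.23 (87.4). Cdh1, with an SD of 0.095 (39.6), and Krt19, with 0.066 (18.9), varied less than the median gene. The 7211 genes above the dim line on every lavage array had a lower median SD, 0.096. Among them Cdh1 stood near the middle, at percentile 49.0, and Krt19 at 25.2. These percentiles describe the 6 lavage arrays and carry no test.

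**Figure D2:**
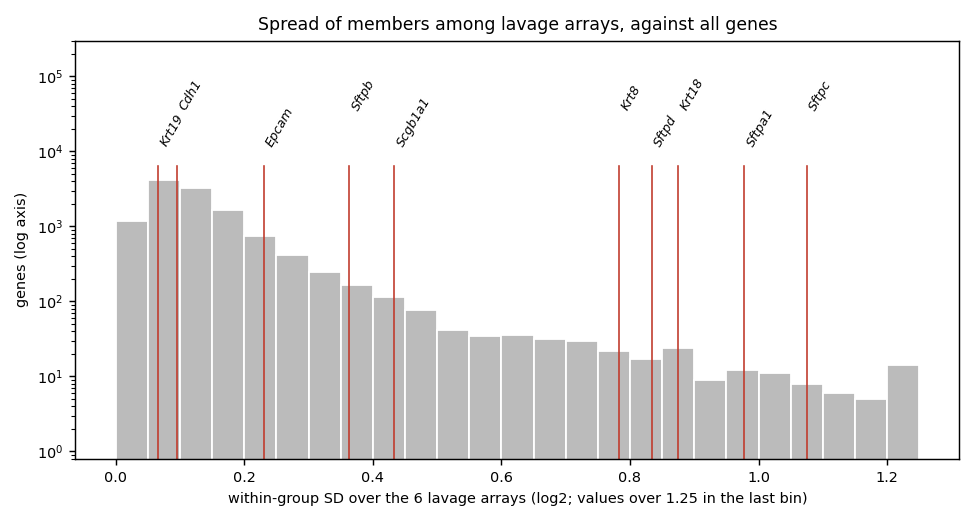
Histogram of the within-group SD (log2, horizontal axis) over the 6 lavage arrays for all 12393 genes (number of genes, log axis), with red lines at the 10 genes described. Sftpc, Sftpa1, Krt18, Sftpd and Krt8 lie in the right tail above the 99th percentile, and Cdh1 and Krt19 lie below the median of 0.11.

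Whether the members vary together over the lavage samples was measured for all 45 pairs, by Pearson and Spearman correlation of log2 values over the 6 arrays with exact permutation of the arrays (two-sided). Of the 45 pairs, 3 passed an adjusted p of 0.05 over the pairs, and 15 had an unadjusted p under 0.05. By Spearman's rho 0 pairs passed, the smallest adjusted exact p being 0.0625. Sftpc with Sftpa1 and Scgb1a1 with Krt18 had that value at a rho of 1.00, the highest possible (exact permutation p = 0.00278). Missing the threshold by rho thus says nothing against rank agreement in these pairs. The pairs share the same 6 arrays and therefore their RNA and hybridisation.

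Sftpc and Sftpa1 correlated at r = 0.988 and rho = 1.00 (exact p = 0.00139, the smallest the 720 orderings gave, adjusted 0.0313). Without the 2 arrays farthest from the median of Sftpc, r was 0.97, and within groups, as deviations from the group means, it was 0.986. The log2 difference between these 2 genes varied by 0.53 over the 6 arrays, while Sftpc itself spanned 3.32 and Sftpa1 2.80. The 2 genes thus kept nearly a fixed ratio while their levels changed several-fold. Scgb1a1 and Krt18 were the other positive pair, with r = 0.960 and rho = 1.00 (adjusted exact p = 0.0313), 0.98 without the 2 farthest arrays and 0.963 within groups. Sftpb and Cdh1 ran in opposite directions, with r = -0.923 and rho = -0.94 (adjusted exact p = 0.0417), and -0.87 within groups. Sftpb exceeded the dim line on 1 lavage array only, and Cdh1 spanned 1.41-fold. In each of these genes the Pregnant and Control arrays did not overlap, and the permutation took no account of group.

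Several more pairs had high correlations that missed the threshold. Sftpa1 with Sftpd (r = 0.960), Sftpa1 with Krt8 (0.928), Sftpc with Sftpd (0.926), Epcam with Krt19 (0.925) and Sftpc with Krt8 (0.890) each had an adjusted exact p of 0.0547, and Sftpd with Krt8 (0.948) had 0.0556. Among Scgb1a1 and the surfactant genes the 10 correlations ran between 0.37 and 0.99 with a median of 0.83. Among Epcam, Cdh1 and the keratins the 10 ran between -0.71 and 0.93 with a median of -0.26. The first set thus had positive correlations throughout, and the second had both signs.

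A division made after seeing these values describes the pattern more closely, and has no test. Within groups, the 21 pairs among Scgb1a1, Krt8, Krt18 and the 4 surfactant genes had r between 0.60 and 0.99, with a median of 0.92. The 21 pairs that join one of these with Epcam, Cdh1 or Krt19 all had negative within-group r, between -0.92 and -0.30. The 3 pairs among Epcam, Cdh1 and Krt19 had 0.60 to 0.75 within groups, but as measured Epcam with Cdh1 was at -0.71 and Cdh1 with Krt19 at -0.58, and Epcam with Cdh1 was at -0.99 without the 2 farthest arrays. As measured, without taking out the group means, the same 21 cross pairs ran between -0.92 and 0.43, and between -0.96 and 0.96 without the 2 farthest arrays. The negative sign is therefore seen within groups and not in all 3 ways of computing r.

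**Figure D3:**
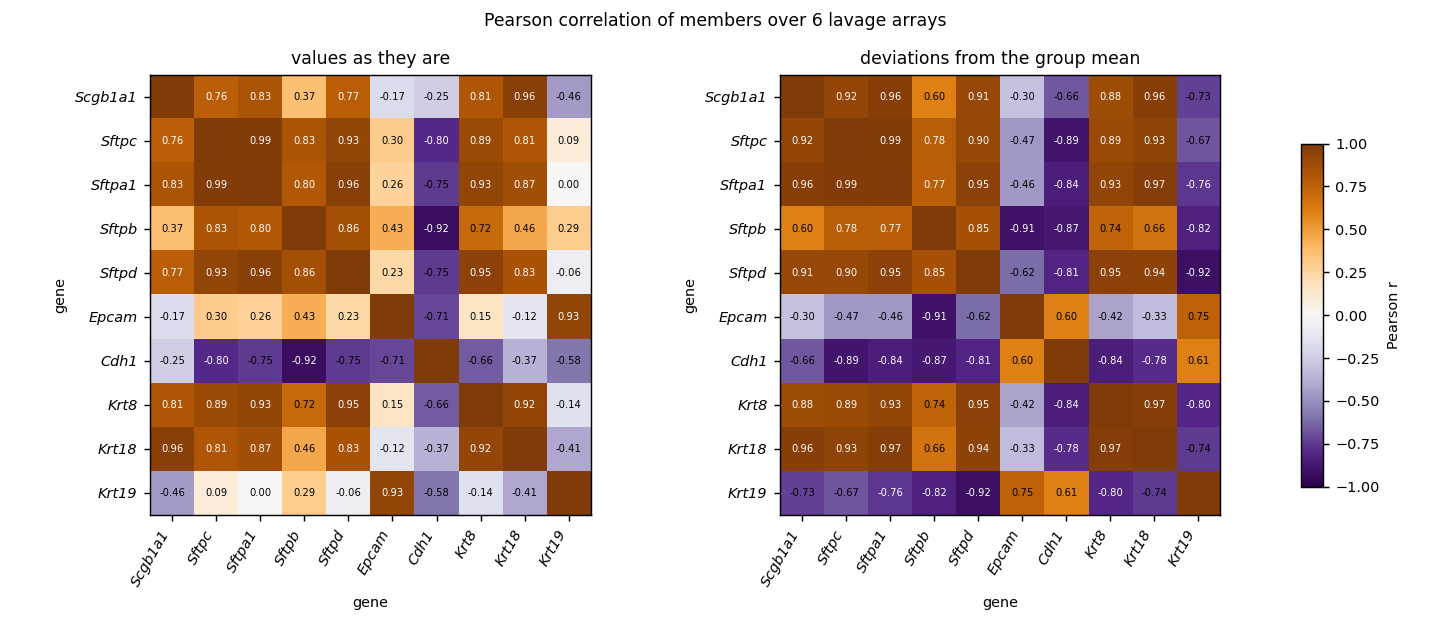
Pearson r between the 10 genes over the 6 lavage arrays, with values as measured on the left and as deviations from the group mean on the right; colour runs between -1 (purple) and 1 (brown). Sftpc, Sftpa1, Sftpd, Krt8 and Krt18 form a block of high positive values in both panels, and Epcam, Cdh1 and Krt19 have negative within-group values with that block.

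Different probe sets of 1 gene give a scale for these values. The 2 Sftpc probe sets correlated at 0.989 over the lavage arrays, the 2 Sftpa1 probe sets at 0.980 and the 3 Krt8 probe sets at 0.950 to 0.977. On its other probe set Sftpc measured 4085, 6682 and 2330 in Pregnant and 4338, 1115 and 2804 in Control lavage, which is the same order of arrays. The correlation of Sftpc with Sftpa1 lay within the range of those between probe sets of a single gene.

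**Figure D4:**
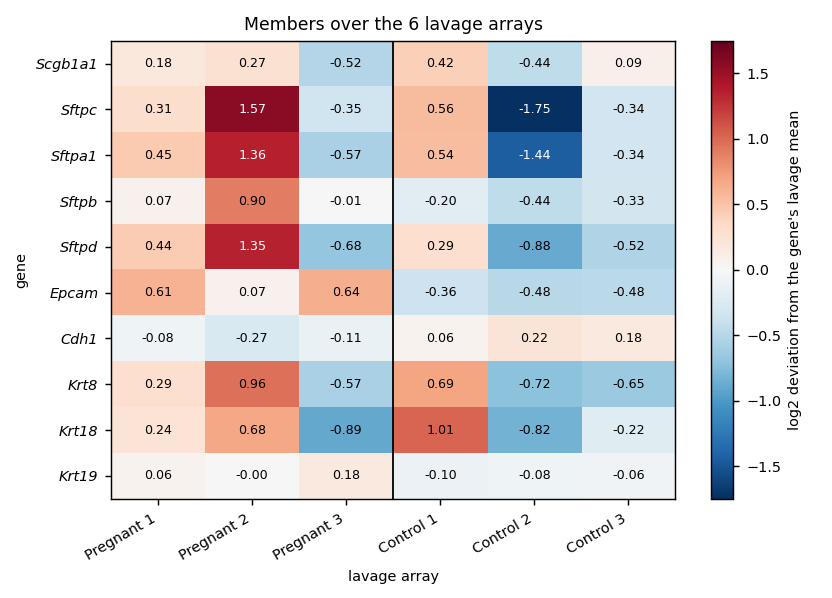
Heat map of each gene's deviation from its own mean over the 6 lavage arrays (log2, red above and blue below), with genes down the page and Pregnant arrays left of Control arrays. Sftpc, Sftpa1, Sftpd and Krt8 are reddest at Pregnant 2 and bluest at Control 2, and Cdh1 and Krt19 stay pale throughout.

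The genes most like a member over the lavage samples were taken from genes above the dim line on every lavage array with an SD over 0.3 (log2). Nearest to Sftpc were Sftpa1 (r = 0.988), Blvrb (0.978), Ppp1r15a (0.973), Slc30a1 (0.962) and Ms4a6c (0.959). Apart from Sftpa1, none of these is among the epithelial genes listed here. On the RAW264.7 arrays Blvrb measured 4625 to 5611, Ppp1r15a 726 to 947, Slc30a1 1141 to 1215 and Ms4a6c 1343 to 2385, all above the dim line. Nearest to Scgb1a1 were Krt18 (0.960), H2-Aa (0.935), C1qb (0.923), Cadm1 (0.914) and Cxcl2 (0.911), of which Krt18 alone is among those epithelial genes. Nearest to Krt18 were H2-Aa (0.993), Cxcl2 (0.982), H2-Ea (0.980), H2-Eb1 (0.976) and Muc1 (0.975). H2-Aa and H2-Eb1 encode MHC class II chains, which present antigen, and Muc1 encodes a mucin of epithelial surfaces. Nearest to Cdh1 were Srcap (0.984), Qser1 (0.976), Ttc14 (0.945), Ccdc117 (0.940) and Brwd1 (0.937), none of which is among the epithelial genes listed here. The condition on SD left out steady genes in advance, among them Krt19 (SD 0.10), Perp (0.056) and F11r (0.088), and Cdh1 itself had 0.19. The search could therefore not show whether steady epithelial genes are like Cdh1. These r values rest on 6 arrays and are the highest of a search, over 365 genes for Scgb1a1, Sftpc and Krt18 and 366 for Cdh1. Among the genes that met these conditions, 6.30% had an r of at least 0.9 with Sftpc, 2.73% with Cdh1, 12.1% with Krt18 and 1.64% with Scgb1a1. Over all 12392 other genes the shares were 1.82% for Sftpc, 1.49% for Cdh1, 1.48% for Krt18 and 0.541% for Scgb1a1.

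Other epithelial genes were measured from lists of markers. Of 19 measured type 2 cell genes, 4 had an r of at least 0.9 with Sftpc, as did 2 of 11 type 1 cell genes, 2 of 18 club and secretory cell genes, 7 of 36 epithelial junction and regulator genes and 0 of 8 ciliated cell genes. Of these genes, 1 type 2 and 1 type 1 cell gene were above the dim line on every lavage array, and 0 of the club and junction genes were. The 2 genes were Cd74 (r = 0.967) in the type 2 list and Ager (0.952) in the type 1 list. A place in a list does not make a gene exclusive to that cell type. On every RAW264.7 array 8 of the 19 type 2 and 1 of the 11 type 1 cell genes were above the dim line. Which lavage cells gave the Cd74 signal was not tested. In the lists of macrophage markers, of surfactant uptake and clearance genes, and of neutrophil, B cell, red cell, fibroblast and vessel genes, 0 had an r of at least 0.9 with Sftpc, and 1 of 13 T cell genes did. Over all other genes the share was 1.82%, so a count of 0 in lists this short says little. Slc34a2, the phosphate transporter of type 2 cells, measured 356, 766 and 156 in Pregnant and 492, 84.4 and 218 in Control lavage, the same order of arrays as Sftpc. Other type 2 cell genes had negative r with Sftpc: Abca3 (-0.63), Etv5 (-0.63), Napsa (-0.38), Dlk1 (-0.24), Ctsh (-0.12) and Fasn (-0.03). The median r over the type 2 list was 0.62. It was 0.83 over the type 1 list, 0.80 over the club list, 0.66 over the junction list and 0.48 over the ciliated list. In the junction list the lowest r were those of Marveld2 (-0.86) and Perp (-0.77), and the log2 summed intensity of that list had r = -0.973 with Sftpc. Median r was -0.49 for the clearance genes and -0.23 for the macrophage markers. Abca3 measured 5581, 5422 and 5646 in Pregnant and 5115, 5748 and 5818 in Control lavage. Perp, a junction gene, measured 7687, 7244 and 7506 in Pregnant and 7079, 7868 and 7567 in Control lavage. F11r, a tight junction adhesion gene, measured 2346, 2136 and 2524 in Pregnant and 2283, 2183 and 2390 in Control lavage. The 36 junction and regulator genes were not alike in spread: their SD over the lavage arrays (log2) was 0.056 for Perp and 0.088 for F11r, but 0.71 for Sdc1, 0.60 for Krt7 and 0.58 for Tjp1, the last 3 being the highest of the list and chosen after their values were seen.

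Signals of other cell types and of RNA quality differed among the same arrays. The summed intensity of the club and secretory cell list was 31841 to 52997 in Pregnant and 24760 to 60845 in Control lavage, with Control 1 highest. The summed neutrophil list was 6790 to 11408 in Pregnant and 6481 to 20699 in Control lavage, again with Control 1 highest. The summed type 2 cell list was 53558 to 59589 in Pregnant and 52492 to 56457 in Control lavage. In RAW264.7 cells the type 2 sum was much the same, 56127 to 58541 in Estradiol and 53649 to 54918 in Unstimulated cells. None of the 13 fibroblast and vessel genes was above the dim line on 3 lavage arrays. The 3′ to 5′ difference of the actin control probe sets (log2) was 0.30, 0.39 and 0.29 in Pregnant and 0.26, 0.35 and 0.28 in Control lavage, and that of the transferrin receptor was 2.83, 3.86 and 3.47 in Pregnant and 3.21, 3.38 and 2.84 in Control lavage. Pregnant 2, the array highest in Sftpc, had the largest difference of both. The part of these signals in the spread of the surfactant genes was not tested.

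In Pregnant against Control lavage, limma called 0 of 10 members after adjustment over all genes, as it called 0 of 12393 genes. At an unadjusted p under 0.05 there were 3 of 10 members, against 9.38% of all genes. The groups did not overlap in 4 of 10 members, 3 higher and 1 lower, against 15.7% of all genes in either direction and 10.7% higher. The median difference was 0.55 over the members and 0.03 over all genes (log2).

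Epcam had the smallest p of the members. With 3088, 2129 and 3146 in Pregnant and 1578, 1450 and 1453 in Control lavage it differed by 0.88 ± 0.16, or 1.84-fold (adjusted p = 0.395 by limma), and every Pregnant array was above every Control array. Its adjusted p ranged between 0.0519 and 0.642 over the alternatives tried, so it never passed. Cdh1 was lower in every Pregnant array, by -0.30 ± 0.08 (adjusted p = 0.438 by limma). Krt19 differed by 0.16 ± 0.07 (adjusted 0.535) and Sftpb by 0.64 ± 0.24 (adjusted 0.494), both with Pregnant arrays above Control arrays. Sftpb exceeded the dim line on 1 of these 6 arrays, Pregnant 2, and its difference was 0.35 without that array.

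The surfactant genes with wide spread gave no firm difference. Sftpc differed by 1.02 ± 0.69 (adjusted 0.670), Sftpa1 by 0.83 ± 0.62 (0.698) and Sftpd by 0.74 ± 0.53 (0.685). Single arrays decided their size: without Control 2 the Sftpc difference was 0.40, without Pregnant 2 it was 0.49, and without Control 1 it was 1.55. Leaving out 1 array gave 0.31 to 1.32 for Sftpa1, 0.25 to 1.27 for Sftpd and 0.089 to 0.92 for Krt8, with the lowest value of Sftpd and Krt8 without Pregnant 2 and that of Sftpa1 without Control 2. Krt8 differed by 0.46 ± 0.50 (adjusted 0.798), Krt18 by 0.02 ± 0.56 (0.995) and Scgb1a1 by -0.04 ± 0.28 (0.977). Other probe sets of these genes gave 0.74 ± 0.57 for Sftpc, 1.16 ± 0.63 for Sftpa1, and 0.47 ± 0.59 and 0.19 ± 0.48 for Krt8, none called. The summed intensity of the 5 secreted genes was 8629 to 20705 in Pregnant and 7389 to 16514 in Control lavage, which overlap. None of the type 2, type 1, club, ciliated or junction genes was called either, with 1 of 19, 3 of 11, 0 of 18, 1 of 8 and 3 of 36 at an unadjusted p under 0.05.

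In RAW264.7 cells the members had signals near background with and without estradiol. In Estradiol against Unstimulated cells 1 of 10 members was called, Epcam, which fell, against 11.4% of all genes called in either direction and 4.66% called lower. Epcam measured 35.3, 25.9 and 30.7 in Estradiol cells, against 44.3, 45.4 and 47.9 in Unstimulated cells. All 6 values lie far under the dim line, and the difference was -0.58 ± 0.11 (adjusted p = 0.0175 by limma). The call was lost without Unstimulated 1 (adjusted p 0.0556), Unstimulated 2 (0.0676), Unstimulated 3 (0.0747) or Estradiol 3 (0.0574). Scgb1a1 measured 25.9, 27.7 and 41.1 in Estradiol and 64.5, 31.5 and 51.0 in Unstimulated cells, a difference of -0.59 ± 0.28 that was not called (adjusted 0.229). It was -0.37 without Unstimulated 1, -0.87 without Unstimulated 2 and -0.23 with array weights. Sftpd differed by -0.45 ± 0.14 (adjusted 0.0833), or by -0.24 with array weights. The other 7 members differed by -0.16 to 0.22 (log2).

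The pregnancy difference was set against the estradiol difference in 1 fit over all 4 groups. Of the 10 members 1 was called, Epcam, which was higher, against 4.43% of all genes called in either direction and 2.21% called higher. Its pregnancy difference exceeded its estradiol difference by 1.46 ± 0.20 (log2, adjusted p = 0.00318 by limma), and it was called in all 12 fits that left out 1 array. One of the 2 differences rests on signals near background, as given above. For the remaining 9 members the differences lay between -0.14 and 1.20 and were not called, with Sftpd at 1.20 ± 0.61 (adjusted 0.316).

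**Figure D5:**
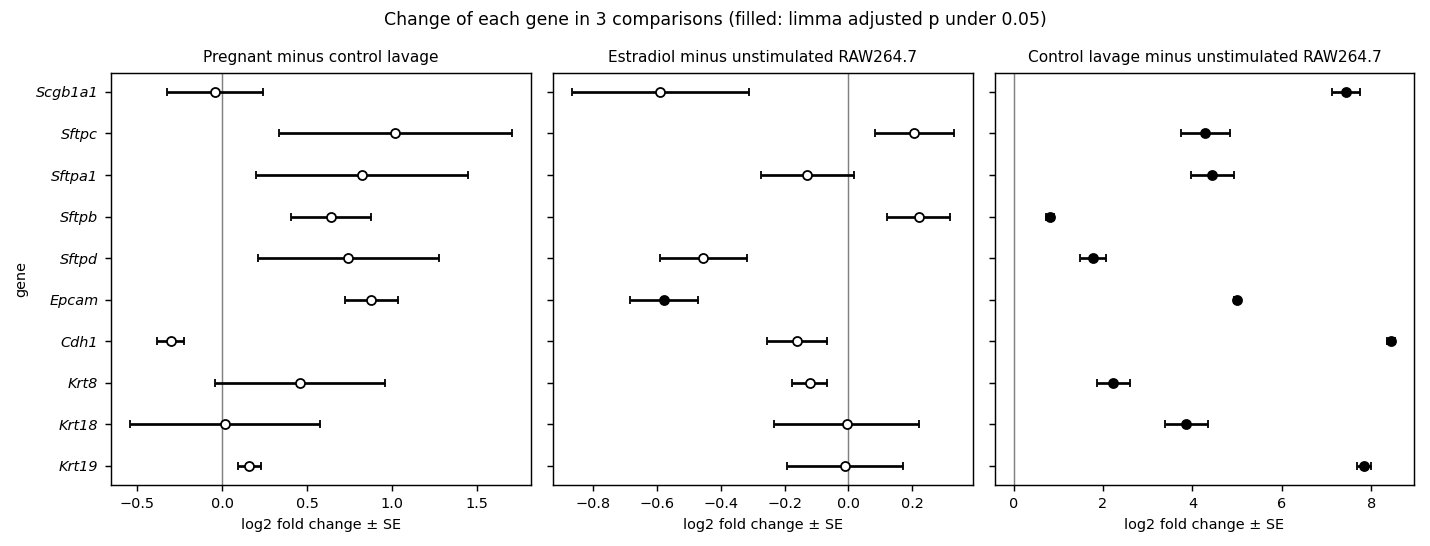
Difference (log2, horizontal axis, bars are SE) of each gene in 3 comparisons, each with its own scale and filled points where limma called it: Pregnant minus Control lavage, Estradiol minus Unstimulated RAW264.7, and Control lavage minus Unstimulated RAW264.7. All 10 genes lie right of 0 in the lavage and RAW264.7 comparison, and the lower Epcam in Estradiol cells is the one filled point in the other 2 panels.

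In the comparison of Control lavage with Unstimulated RAW264.7 cells, genes of the other epithelial lists were called in both directions, where 27.9% of all genes were called higher and 61.9% in either direction. Of 18 club and secretory cell genes 14 rose and 1 fell, of 11 type 1 cell genes 9 rose and 1 fell, of 19 type 2 cell genes 9 rose and 6 fell, of 8 ciliated cell genes 5 rose and 1 fell, and of 36 junction and regulator genes 18 rose and 6 fell. Bpifa1, a secreted airway protein, measured 15097, 7572 and 7835 in Control lavage, against 36.7, 26.7 and 29.3 in Unstimulated cells. RAW264.7 cells had signal for part of these lists: 8 of 19 type 2 cell genes and 6 of 36 junction genes were above the dim line on all 6 RAW264.7 arrays. Of the 18 surfactant uptake and clearance genes 14 rose and 2 fell, and of the 18 macrophage markers 14 rose and 2 fell. Pparg, the nuclear receptor that alveolar macrophages need to clear surfactant, measured 6081, 5693 and 6570 in Control lavage, against 82.1, 75.9 and 84.7 in Unstimulated cells, all 3 Unstimulated values under the dim line. In Estradiol cells 2 of the 18 clearance genes fell and 0 rose, where 4.66% of all genes were called lower and 11.4% in either direction, the 2 being Abca1 (-0.71 ± 0.07), a lipid exporter, and Cd36 (-0.52 ± 0.12), a scavenger receptor.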

How the data were processed

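The authors deposited 1 linear intensity per probe set and array, which per the submitters' processing notes came from RMA (background correction, quantile normalization, summary of probes), version not given in the sources used here. Of 22690 probe sets, 64 controls, 691 with several symbols and 1555 with none were left out. Symbols came from the platform annotation, where 29 Entrez IDs had no match in the RefSeq table and kept their listed symbol. The probe set with the highest mean over 12 arrays stood for a gene. The members and the gene lists were chosen with earlier results of these data known. Named genes were all members, up to 3 called genes per list and comparison (or the 2 largest changes), and the 5 most like Scgb1a1, Sftpc, Cdh1 and Krt18; of these, the ones that bear on the members are printed.

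Intensities were analysed as log2(value + 1) in limma 3.58.1 (R 4.3.3; lmFit, eBayes), two-sided, with Benjamini-Hochberg adjustment over 12393 genes and calls at 0.05. Each pair of groups used its 6 arrays, and the difference of differences used all 12. Signals were called dim at or under the 40th percentile of the array, and a gene was dim in a comparison if fewer than 3 of 6 arrays exceeded it. Correlations and their exact permutation over all orderings were computed in numpy 2.4.6, with ranks for Spearman's rho taken in scipy 1.17.1. Both scripts were tested on simulated data. For arrays, their number limits the precision. No 2 arrays were identical, and no scan date or batch was given. Alternatives were quantile normalization, a common median, a filter on dim genes, the mean of probe sets, array weights, an intensity-dependent prior, all arrays in 1 fit, no pseudocount, a pseudocount of 16, and leaving out each array.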

Additional observations from a re-analysis of the deposited data

Results flagged for a closer look

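Epcam was marked because its change differed between the lavage and the RAW264.7 comparison by a direct test. Its pregnancy difference minus its estradiol difference was 1.46 ± 0.20 (log2, adjusted p = 0.00318 by limma), with an adjusted p of 8.9e-05 to 0.0126 over 20 alternatives. The parts were 0.88 in Pregnant against Control lavage and -0.58 in Estradiol against Unstimulated cells, the second at intensities of 25.9 to 47.9, under the dim line. Leaving out 1 array gave 1.34 to 1.64, called in 12 of 12 fits.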

How the results depend on the processing

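No paired analysis was possible because the labels carry no replicate numbers and numbers were given in accession order. The members called between Pregnant and Control lavage stayed at 0 in every alternative, although 18 of all genes were called with all 12 arrays in 1 fit and 1 with the filter on dim genes, against 0. In Control lavage against Unstimulated cells all 10 members were called in every alternative that tested them. The filter on dim genes kept 7, which passed it through Control lavage, so their being called there says nothing about stability. In Estradiol against Unstimulated cells the count of 1 became 2 with array weights, which did not fully converge (Sftpb joined, adjusted p 0.0372), 0 with the filter on dim genes, which tests 0 members, and 0 to 1 when leaving out an array. All genes called there numbered 4010 with array weights, 681, 637 and 684 without Unstimulated 1, 2 or 3 and 824 without Estradiol 3, against 1414, and for the difference of the 2 changes 1394 with array weights, against 549. The pairs of members called became 0 to 0 when leaving out an array, since 5 arrays allow no exact p under 0.00833 and 8 pairs would have to reach it. Signs turned in the values that follow. The Krt18 pregnancy difference was -0.0088 with quantile normalization, -0.037 with a common median and -0.39 to 0.53 when leaving out an array, and Scgb1a1 was 0.0053 with array weights and -0.27 to 0.21. In the estradiol difference Sftpa1 was 0.0029 with the mean of probe sets and -0.25 to 0.038, Krt18 0.25 with array weights and -0.25 to 0.15, and Krt19 0.043 with array weights and -0.13 to 0.18. In the difference of the 2 changes Krt18 was -0.044 with array weights and -0.38 to 0.53, and Krt19 -0.022 to 0.28. Signal under the dim line limits every RAW264.7 value of the members.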
